A study of Mus musculus with 2 samples.

Results

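The G1 cyclins and cyclin-dependent kinase (CDK) inhibitors were analysed as a set of 10 genes, chosen by symbol out of the 29311 genes listed in the tables. They comprise the D-type cyclins *Ccnd1*, *Ccnd2* and *Ccnd3*, the E-type cyclins *Ccne1* and *Ccne2*, the kinase gene *Cdk6*, the inhibitors *Cdkn1a*, *Cdkn1b* and *Cdkn2a*, and *Rb1*. RNA-seq was available for 2 wild type samples, 1 of each kind. The first was E14 embryonic stem (ES) cells, a cultured line grown without feeders in serum and LIF. The second was forebrain dissected from B6CBAF1/J embryos at E10.5, with RNA taken from single embryos according to the paper. The labels give 1000000 cells as the input of each sample. The samples thus differed in strain as well as in cell type, and culture was compared with tissue, so that these factors cannot be told apart. Without replicates no test of a difference was possible, and all differences between samples are descriptions of these 2 libraries.

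Entry into S phase depends on cyclins that bind CDKs in G1. D-type cyclins activate Cdk4 and Cdk6, which phosphorylate the retinoblastoma protein and thereby release E2F transcription factors, and E-type cyclins then activate Cdk2. The Cip/Kip inhibitors (*Cdkn1a*, *Cdkn1b* and *Cdkn1c*, encoding p21, p27 and p57) bind cyclin-CDK complexes, while INK4 inhibitors bind Cdk4 and Cdk6 themselves. ES cells are known for a short G1 phase, and progenitors of the embryonic forebrain are known to lengthen G1 as neurogenesis proceeds.

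Values are the RPKM that the authors deposited, a level per kb of exon. They are larger than reads per kb and 1000000 reads would be, and how they were scaled between samples is not stated. The contribution of 1 read was inferred from the spacing of low values, which gave 42785213 gene-assigned reads for the ES cell library and 59792544 for the forebrain library. Intervals are exact 95% intervals on the inferred reads. They cover counting error only, and not the variation between samples of a cell type. Differences are given on log2(RPKM + 1), as ES cells minus E10.5 forebrain, and a gene was called different past 2-fold on this scale.

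The 8 markers of ES cells summed to an RPKM of 40877.0 in ES cells and of 310.8 in forebrain, and the 8 forebrain markers to 203.7 and 6013.4, which follows the labels. Markers of other cell types were present in the forebrain sample as well. Erythroid markers summed to 407.8 in ES cells and to 799479.5 in forebrain, markers of head mesenchyme to 74.08 and 19250.6, and endothelial markers to 607.3 and 2251.7, with 8 of 8, 8 of 8 and 7 of 8 genes at least 2-fold higher in forebrain and none of the 24 at 0 in either sample. Erythroid markers held 1.55% of the summed RPKM of all genes in forebrain and 1.12% of its inferred reads. *Pecam1* made up 551.1 of the endothelial sum in ES cells and had 316.5 in forebrain. Of the 7 neuron markers listed, 6 were at least 2-fold higher in forebrain, and *Stmn2* was higher in ES cells (6910.3 and 1056.3). Markers of trophoblast and endoderm summed to 371.4 and 307.7, with 2 of 8 at least 2-fold higher in ES cells and 5 of 8 in forebrain. *Cdx2* had 271.6 and 0, and *Eomes* 90.06 and 233.7. The forebrain sum thus rested mainly on *Eomes*, and does not show that trophoblast or endoderm was present. The part of other cell types in the differences described here was not tested. In such bulk samples, fewer cells of a type and less RNA per cell cannot be told apart.

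RefSeq promoters (GRCm38.p6) were found for 6 of the 10 genes, namely *Ccnd3*, *Ccne1*, *Cdk6*, *Cdkn1a*, *Cdkn1b* and *Cdkn2a*, as 9 sequences in all. They are shown for *Ccne1*, *Cdkn1a* and *Cdkn2a*, the 3 of these genes with the largest differences in favour of ES cells. Each run holds the 250 bases before a start site, 5′ to 3′. Capitals mark the GC box (GGGCGG), the E2F motif (TTTCCCGC, TTTGGCGC, TTTCGCGC or TTTGCCGC) and the p53 motif, all on both strands.
Ccne1, chr7:38107491-38107740, minus strand: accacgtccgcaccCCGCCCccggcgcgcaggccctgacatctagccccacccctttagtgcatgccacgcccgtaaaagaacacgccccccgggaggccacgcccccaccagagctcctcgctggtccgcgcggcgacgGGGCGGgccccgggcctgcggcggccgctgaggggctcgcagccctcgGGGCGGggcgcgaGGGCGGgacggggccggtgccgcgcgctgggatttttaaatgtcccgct
Cdkn1a upstream start, chr17:29090729-29090978, plus strand: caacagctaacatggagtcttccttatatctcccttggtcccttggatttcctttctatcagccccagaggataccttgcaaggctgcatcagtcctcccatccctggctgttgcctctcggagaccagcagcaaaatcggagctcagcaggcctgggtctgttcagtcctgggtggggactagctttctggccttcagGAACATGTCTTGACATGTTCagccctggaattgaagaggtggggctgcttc
Cdkn1a downstream start, chr17:29093519-29093768, plus strand: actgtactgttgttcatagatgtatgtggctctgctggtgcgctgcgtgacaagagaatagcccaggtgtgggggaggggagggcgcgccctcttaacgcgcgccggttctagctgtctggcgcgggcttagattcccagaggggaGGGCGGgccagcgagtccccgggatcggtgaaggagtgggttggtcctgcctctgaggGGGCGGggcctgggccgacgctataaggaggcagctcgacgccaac
Cdkn2a upstream start, chr4:89294620-89294869, minus strand: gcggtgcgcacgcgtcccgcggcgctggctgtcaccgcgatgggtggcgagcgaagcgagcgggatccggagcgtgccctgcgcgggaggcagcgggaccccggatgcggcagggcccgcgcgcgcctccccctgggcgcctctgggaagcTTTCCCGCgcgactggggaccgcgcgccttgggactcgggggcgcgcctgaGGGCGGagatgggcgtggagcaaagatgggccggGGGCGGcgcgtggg
Cdkn2a downstream start, chr4:89282193-89282442, minus strand: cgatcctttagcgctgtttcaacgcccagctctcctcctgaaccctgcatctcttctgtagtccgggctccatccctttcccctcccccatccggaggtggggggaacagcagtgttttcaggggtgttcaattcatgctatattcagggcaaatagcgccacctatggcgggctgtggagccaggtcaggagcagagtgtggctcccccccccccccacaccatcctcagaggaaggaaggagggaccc

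All 9 promoters matched NCBIM37 (mm9), the build of the tables, exactly and once each. The start sites of *Cdkn1a* lie 2790 bases apart there, and those of *Cdkn2a* at 34 and 12461 bases from the annotated start of the gene. The latter give rise to p19Arf and p16Ink4a, respectively, which are different proteins. A single RPKM was deposited for the gene, and the use of either start site cannot be read from it. GC boxes were found in 6 of the 9 promoters and in 32.7% of 32851 mouse promoters. The *Ccne1* promoter held 4, at 236, 110, 62 and 49 bases before the start. The E2F motif was found in 1.86% of promoters, and here in that of the upstream *Cdkn2a* start alone, at 99 bases before it. The p53 motif (with at most 1 of 20 letters off) was searched after the sequence of *Cdkn1a* had been read. It starts 51 bases before the upstream *Cdkn1a* start and was found in 25 of the 32851 promoters. No match for a cAMP response element (TGACGTCA) was found in the 9 windows. The *Cdk6* promoter held TATAAA at 103 bases and an E-box (CACGTG) at 220 bases before the start, motifs present in 12.4% and 6.02% of promoters. None of these matches shows that a factor binds there.

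Of the 10 genes, 4 were at least 2-fold higher in the ES cell library (*Cdkn2a*, *Cdkn1a*, *Ccne1* and *Cdk6*) and 4 at least 2-fold higher in E10.5 forebrain (*Ccnd2*, *Rb1*, *Cdkn1b* and *Ccne2*). *Ccnd1* and *Ccnd3* differed by less. Of all 29311 listed genes, 23.3% were at least 2-fold higher in ES cells and 25.8% in forebrain, and among the 19620 protein-coding genes these shares were 18.9% and 27.9%. With protein-coding genes below 50 RPKM in both samples left aside, they were 16.1% and 27.1% of 12711 genes. The median difference of the 10 genes was -0.16, compared with -0.17 for protein-coding genes, while the median of its absolute size was 1.83 compared with 0.91. No direction was therefore shared by the set, but 8 of its genes differed by more than 2-fold. More than 3 reads were found for all 10 genes in ES cells and for 9 in forebrain, where *Cdkn2a* had none.

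**Figure D1:**
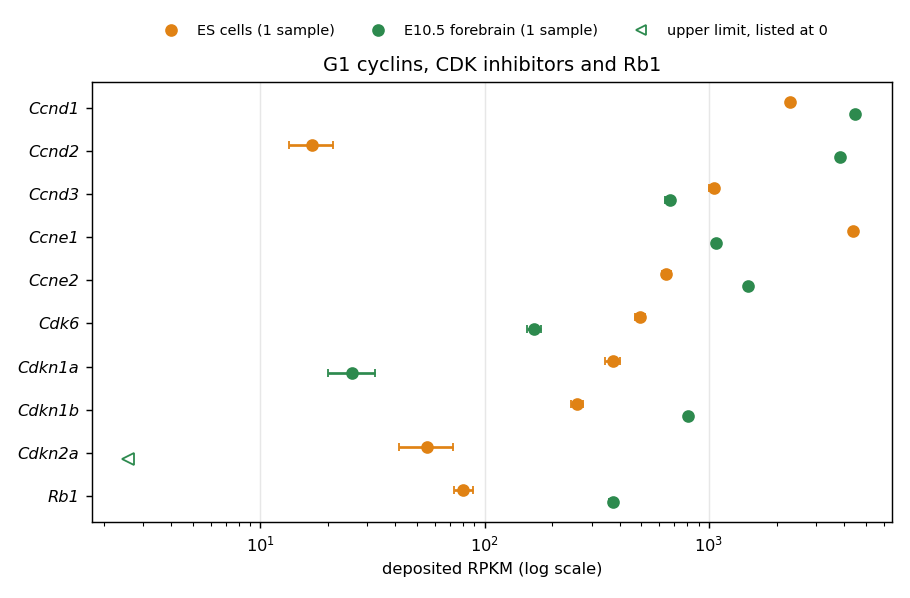
Deposited RPKM (log axis) of the 10 genes in ES cells and E10.5 forebrain, 1 sample each, with exact 95% intervals on inferred reads as bars and the upper limit of 2.58 for *Cdkn2a* in forebrain as an open triangle. *Ccnd2* (16.92 and 3828.5) and *Cdkn1a* (372.6 and 25.61) lie far apart, in opposite directions.

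The composition of the D-type cyclins differed between the samples. *Ccnd2* (ENSMUSG00000000184, chromosome 6, 127075797 to 127101066, NCBIM37, minus strand) had an RPKM of 16.92 in ES cells, from 79 reads (13.4 to 21.1), and of 3828.5 in E10.5 forebrain, from 26650 reads (3782.6 to 3874.7). It was thus 226-fold higher in forebrain (181.5 to 285.9), the lowest of the 10 genes in ES cells and the second highest in forebrain. Its percentile among listed genes went from 39.3 to 97.1. Only 68 protein-coding genes, or 0.347%, differed as much in this direction, *Ccnd2* included. The 3 protein-coding genes with the most similar pair of values over the 2 samples were *Col2a1* (19.44 and 3580.8), *Col1a2* (18.35 and 3036.8) and *Gm16499* (18.5 and 2358.0), at distances of 0.21, 0.35 and 0.71 on log2(RPKM + 1). *Col1a2*, a collagen gene, is one of the 8 head mesenchyme markers used here. Similar values in 2 samples do not show that genes are expressed in the same cells.

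*Ccnd1* (ENSMUSG00000070348, chromosome 7, 152115836 to 152125774) was high in both samples. Its RPKM was 2289.6 in ES cells (2236.9 to 2343.0) and 4464.0 in forebrain (4403.7 to 4524.9), 1.95-fold higher in forebrain (1.90 to 2.00). The difference of -0.96 lay just inside the 2-fold limit, and went past it when samples were scaled by the sum of their values (-1.24) or per 1000000 inferred reads (-1.04). *Ccnd3* (ENSMUSG00000034165, chromosome 17, 47642000 to 47736632) had 1049.9 in ES cells (1003.5 to 1097.5) and 667.9 in forebrain (637.7 to 699.1), 1.57-fold higher in ES cells (1.47 to 1.68). It was the one D-type cyclin with the higher value in ES cells.

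The value of *Ccnd3* is uncertain, since a processed pseudogene, *Ccnd3-ps* on chromosome 4 (138901215 to 138902095), lies in a copy of 86.7% of its transcript at 95.5% identity. *Ccnd3-ps* was listed with an RPKM of 1579.1 in ES cells and 1057.6 in forebrain, from 1140 and 1138 reads, and how the authors' counting divided reads between these loci is not stated. With the reads of both added, *Ccnd3* would have 1666.9 and 1081.2, 1.54-fold higher in ES cells. No such copy of at least 100 bases and 90% identity was found for *Ccnd1*, *Ccnd2*, *Ccne1*, *Ccne2*, *Cdkn1a*, *Cdkn1b*, *Cdkn2a* or *Rb1*. For *Cdk6*, 20.1% of the transcript matched other places, in stretches of at most 390 bases.

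Ratios within a library do not depend on the scaling between samples. In ES cells *Ccnd1* made up 68.2% of the summed D-type cyclin RPKM, *Ccnd3* 31.3% and *Ccnd2* 0.504%. In E10.5 forebrain these shares were 49.8%, 7.45% and 42.7%. With *Ccnd3-ps* added to *Ccnd3*, the share of *Ccnd2* was 0.426% in ES cells and 40.8% in forebrain. Thus *Ccnd2* was a minor part of D-type cyclin RNA in ES cells and of a size with *Ccnd1* in forebrain. The sum of the D-type cyclins was 3356.3 in ES cells and 8960.4 in forebrain, 2.67-fold higher in forebrain and 2.51 to 3.23-fold under the other scalings.

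The 2 E-type cyclins differed in opposite directions. *Ccne1* (ENSMUSG00000002068, chromosome 7, 38883003 to 38892553) had the highest RPKM of the 10 genes in ES cells, 4385.6 (4298.3 to 4474.5), and 1078.2 in forebrain (1042.6 to 1114.3). It was 4.07-fold higher in ES cells (3.91 to 4.23). *Ccne2* (ENSMUSG00000028212, chromosome 4, 11118498 to 11131926) had 646.1 in ES cells (617.1 to 676.4) and 1498.5 in forebrain (1462.0 to 1535.7), 2.32-fold higher in forebrain (2.20 to 2.44). *Ccne1* exceeded *Ccne2* by 6.79-fold in ES cells, whereas in forebrain *Ccne1* was at 0.72 times the level of *Ccne2*. The order of the 2 genes was therefore reversed between the libraries, a comparison that is free of the scaling between samples.

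Their sum was 5031.7 in ES cells and 2576.7 in forebrain, 1.95-fold higher in ES cells and 1.62 to 2.08-fold under the other scalings. Summed E-type over summed D-type cyclin RPKM was 1.499 in ES cells and 0.288 in forebrain, a 5.21-fold difference. It was 3.00-fold without *Ccnd2* and 8.23-fold without *Ccnd1*. With *Ccnd3-ps* added, it was 4.61-fold. E-type cyclin RNA thus outweighed D-type cyclin RNA in ES cells, and the reverse held in E10.5 forebrain.

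**Figure D2:**
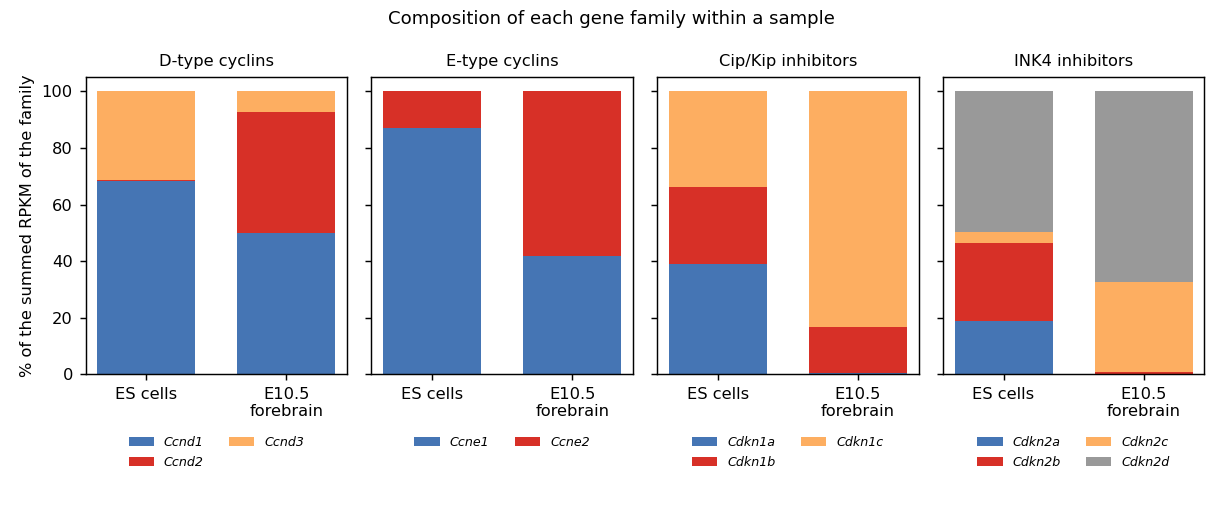
Share of each gene in the summed RPKM of its family (percent, y axis) within ES cells and within E10.5 forebrain, 1 sample each, for D-type cyclins, E-type cyclins, Cip/Kip inhibitors and INK4 inhibitors. *Ccnd2* makes up 0.504% of the D-type cyclins in ES cells and 42.7% in forebrain, and *Cdkn1a* 39.0% and 0.516% of the Cip/Kip inhibitors.

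Among the kinases, *Cdk6* (ENSMUSG00000040274, chromosome 5, 3343893 to 3523218) had an RPKM of 490.8 in ES cells (466.4 to 516.4) and of 165.9 in forebrain (154.4 to 178.2), 2.96-fold higher in ES cells (2.71 to 3.23). *Cdk4*, the other partner of D-type cyclins, had 10912.3 and 11499.2, and thus 22.2 times the level of *Cdk6* in ES cells and 69.3 times in forebrain. The sum of both kinases was 11403.2 and 11665.2, and which sample was higher depended on the scaling (0.81 to 1.04 times in ES cells). *Cdk2*, the partner of E-type cyclins, had 1638.3 and 1384.9. In these libraries *Cdk6* was therefore a small part of the kinase RNA open to D-type cyclins, 4.30% in ES cells and 1.42% in forebrain.

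The Cip/Kip inhibitors differed in opposite directions, as the E-type cyclins did. *Cdkn1a* (ENSMUSG00000023067, chromosome 17, 29227924 to 29237667) had an RPKM of 372.6 in ES cells, from 679 reads (345.4 to 402.0), and of 25.61 in forebrain, from 70 reads (20.1 to 32.6). It was 14.5-fold higher in ES cells (11.3 to 18.8), and 600 protein-coding genes, or 3.06%, differed at least as much in this direction. *Cdkn1b* (ENSMUSG00000003031, chromosome 6, 134870419 to 134875531) had 258.0 in ES cells (242.0 to 274.8) and 809.0 in forebrain (785.6 to 833.1), 3.14-fold higher in forebrain (2.92 to 3.37). *Cdkn1b* was thus at 0.69 times the level of *Cdkn1a* in ES cells and at 31.6 times in forebrain.

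*Cdkn1c*, which completes the family, had 324.7 in ES cells and 4130.2 in forebrain, 12.7-fold higher in forebrain (11.6 to 13.9). In ES cells the shares of *Cdkn1a*, *Cdkn1b* and *Cdkn1c* in the summed RPKM were 39.0%, 27.0% and 34.0%, and in forebrain 0.516%, 16.3% and 83.2%. The 3 genes were therefore of similar level in ES cells, while 1 gene prevailed in forebrain. The sum was 955.3 in ES cells and 4964.8 in forebrain, 5.20-fold higher in forebrain. Over the whole family, the quotient of D-type cyclins to Cip/Kip inhibitors was 3.51 in ES cells and 1.81 in forebrain, and that of E-type cyclins was 5.27 and 0.519, a 10.2-fold difference. Without *Cdkn1c*, summed D-type and E-type cyclins exceeded summed *Cdkn1a* and *Cdkn1b* by 13.3-fold in ES cells and 13.8-fold in forebrain.

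*Cdkn2a* (ENSMUSG00000044303, chromosome 4, 88920377 to 88940557, minus strand) had an RPKM of 55.3 in ES cells, from 53 reads (41.4 to 72.3), and was listed at 0 in E10.5 forebrain, where the upper limit was 2.58. Against a floor of 3 reads, which corresponds to an RPKM of 2.10, the ES cell value was 26.3-fold higher. This ratio is no lower bound, since it takes the ES cell value as exact. The 95% interval of the ratio, which covers the counting error of both samples, starts lower, at 20.7-fold. The difference of 5.82 on log2(RPKM + 1) depends on the pseudocount and is no bound either. At this depth, lower levels in forebrain were not detectable. Its ES cell value corresponded to percentile 51.3, close to the median over all genes of 48.94. The protein-coding genes with the most similar values were *Ceacam20* (56.47), *Aire* (53.94) and *Gm364* (56.91), all listed at 0 in forebrain.

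The INK4 genes differed in both directions. The neighbour of *Cdkn2a* on chromosome 4, *Cdkn2b*, had 79.76 in ES cells from 91 reads and 3.53 in forebrain from 6 reads, 22.6-fold higher in ES cells (9.99 to 63.2). *Cdkn2c* had 11.14 and 122.6, 11.0-fold higher in forebrain (7.20 to 16.9). *Cdkn2d* had 144.6 and 260.4, a difference of -0.84. *Cdkn2d* held the largest share of the summed RPKM in both samples, with 49.7% in ES cells and 67.4% in forebrain. The sum of the family was 290.8 in ES cells and 386.5 in forebrain, a 1.33-fold difference, smaller than that of *Cdkn2a*, *Cdkn2b* or *Cdkn2c*.

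*Rb1* (ENSMUSG00000022105, chromosome 14, 73583480 to 73725629), which encodes the retinoblastoma protein, had an RPKM of 80.38 in ES cells (72.6 to 88.7) and of 372.6 in forebrain (358.7 to 386.8), 4.64-fold higher in forebrain (4.17 to 5.16). Its relatives *Rbl1* (p107) and *Rbl2* (p130) had 223.6 and 602.9, and 93.80 and 122.8, respectively. Of the 3 pocket protein genes, *Rb1* and *Rbl1* were past 2-fold in forebrain (-2.20 and -1.43), as were 27.9% of protein-coding genes, and *Rbl2* was not (-0.39). *Rbl1* held the largest share in both samples, 56.2% in ES cells and 54.9% in forebrain, while *Rb1* went from 20.2% to 33.9%. Under the scaling by upper quartile, the one most in favour of ES cells, the sum of the 3 genes was still 2.60-fold higher in forebrain.

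*Rb1* shares exonic sequence with 2 genes of the opposite strand, *Rcbtb2* and *Lpar6*, both of them higher in forebrain. The libraries were strand-specific, but whether strand was used in counting is not stated. With the level of these genes over the shared 488 and 408 bases taken off, *Rb1* would have 52.6 and 235.8, 4.48-fold higher in forebrain. The same step gave 1.92-fold for *Ccnd1* (overlap with *Oraov1*), 2.43-fold for *Ccne2* (*Ints8*), both higher in forebrain, and 1.54-fold for *Ccnd3* (*Bysl*) and 2.93-fold for *Cdk6* (*Gm17590*), both higher in ES cells.

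**Figure D3:**
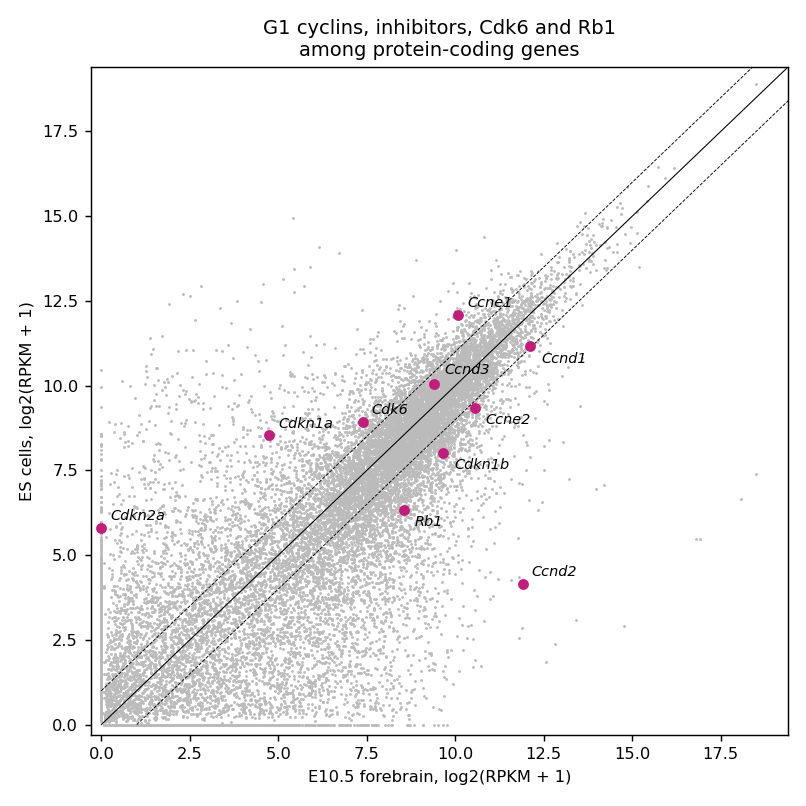
Level of protein-coding genes (grey, 19620 genes) and of the 10 genes (pink) in E10.5 forebrain (x axis) and ES cells (y axis), on log2(RPKM + 1), 1 sample each, with dashed lines at 2-fold differences. *Ccnd2* lies at the lower right with a difference of -7.74, and *Cdkn2a* and *Cdkn1a* lie above the dashed lines with 5.82 and 3.81.

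Ordered by level, the 10 genes in ES cells ran from *Ccne1* over *Ccnd1*, *Ccnd3*, *Ccne2*, *Cdk6*, *Cdkn1a*, *Cdkn1b*, *Rb1* and *Cdkn2a* to *Ccnd2*. In E10.5 forebrain the order was *Ccnd1*, *Ccnd2*, *Ccne2*, *Ccne1*, *Cdkn1b*, *Ccnd3*, *Rb1*, *Cdk6*, *Cdkn1a* and *Cdkn2a*. The counting intervals of neighbours did not overlap in either order, the closest pair being *Ccnd1* and *Ccnd2* in forebrain, 1.17-fold apart. This order holds for the values as deposited. With *Ccnd3-ps* added, *Ccnd3* in forebrain (1081.2) would stand beside *Ccne1* (1078.2) and above *Cdkn1b* (809.0). With overlaps taken off, *Rb1* in ES cells (52.6) would stand beside *Cdkn2a* (55.3). Variation between replicates could not be set beside these gaps. Cyclins took the first 4 places in both samples, and *Rb1* ranked below *Cdkn1b* in both.

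Other genes of the G1/S pathway, together with genes of G2/M and of the p53 pathway, were then examined in lists set by role. Over 98 such genes, 16 were at least 2-fold higher in ES cells, 15 in forebrain and 67 in neither, beside 18.9% and 27.9% of protein-coding genes. Their median difference was 0.01. This even split depends on the lists entered. Of the 16 genes higher in ES cells, 11 came from the list of p53 and its target genes, which held none of those higher in forebrain. Of 16 genes of G2 and M phase, 15 differed by less than 2-fold, with a median of -0.01 that ranged from -0.28 to 0.08 over the other scalings. *Ccnb1* and *Cdk1*, which drive mitosis, had 1256.9 and 852.6, and 4702.3 and 4050.2, in ES cells and forebrain respectively. The exception was *Mki67*, a marker of cycling cells, with 759.8 and 2474.0, 3.26-fold higher in forebrain.

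Of 18 E2F-regulated genes of the G1/S transition, 15 differed by less than 2-fold, with a median of 0.39 (0.11 to 0.48 over the other scalings). *Pcna*, the sliding clamp of replication, had 8499.7 in ES cells and 8610.3 in forebrain, and *Ccna2* (cyclin A2) had 4260.8 and 4486.0. Of protein-coding genes, 18.9% were past 2-fold in ES cells. The 3 genes of the list past this limit were all higher in ES cells. They were *Mybl2*, a transcription factor of cycling cells, with 3467.7 and 365.0 (9.50-fold), the uracil glycosylase gene *Ung* with 2181.7 and 642.8 (3.39-fold), and the licensing factor gene *Cdt1* with 1623.0 and 698.6 (2.32-fold). Scaled by the sum, 2 genes were past 2-fold. Of the 10 E2F and DP genes themselves, 3 were past 2-fold in forebrain, close to the share of protein-coding genes (27.9%), and none in ES cells (18.9%), with a median of -0.79. These were *E2f7* (46.44 and 136.0), *E2f6* (293.5 and 787.0) and *Tfdp2* (349.6 and 897.9). The count in forebrain was 6 with samples scaled by their sum and 2 per 1000000 inferred reads.

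**Figure D4:**
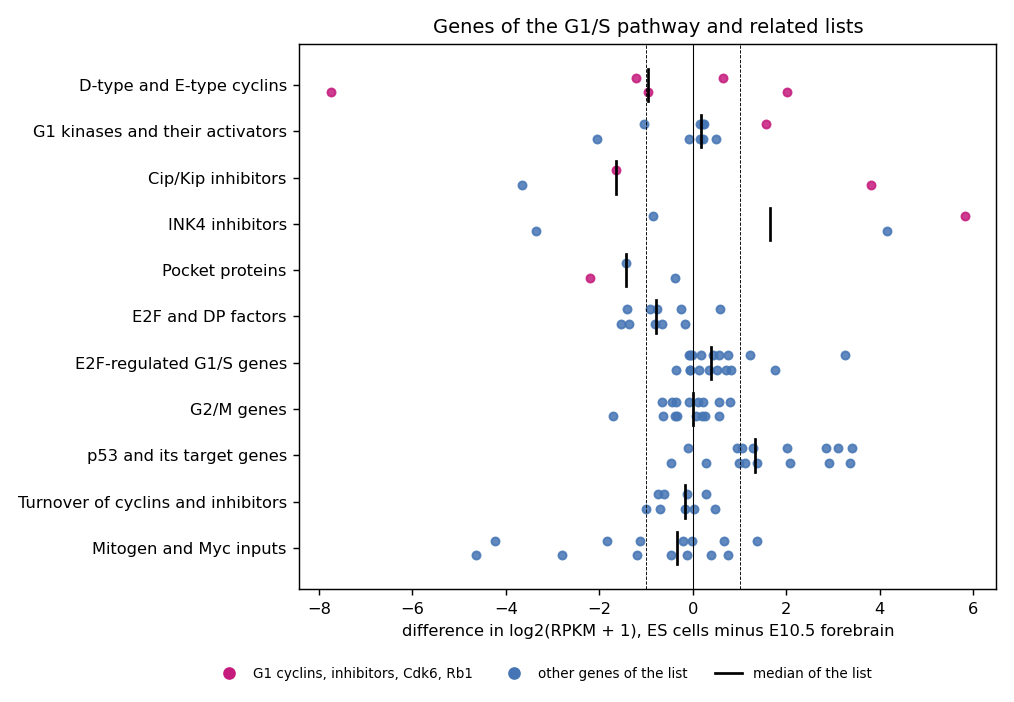
Difference in log2(RPKM + 1), ES cells minus E10.5 forebrain (x axis), for each gene of 11 lists, 1 sample each (pink, the 10 genes; blue, other genes; vertical bars, medians; dashed lines, 2-fold). Genes of the G2/M and E2F-regulated lists lie mostly between the dashed lines, while the cyclins and inhibitors spread from -7.74 to 5.82.

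*Cdkn1a* is a classical target of p53, and other genes of that pathway were examined next to it. Of 16 genes, 11 were at least 2-fold higher in ES cells and none in forebrain, compared with 18.9% and 27.9% of protein-coding genes. Their median difference was 1.32. *Phlda3* had 2024.3 in ES cells and 190.2 in forebrain (10.6-fold), *Sesn2* 1151.7 and 110.5 (10.4-fold) and *Ccng1*, encoding cyclin G1, 8385.0 and 978.8 (8.57-fold). *Bax*, a mediator of apoptosis, had 6285.8 and 1484.6 (4.23-fold), and *Mdm2*, which directs the degradation of p53, had 1515.1 and 585.5 (2.59-fold). *Trp53* itself had 540.6 and 279.8, a difference of 0.95, inside the limit. *Btg2* and *Sesn1* had their higher values in forebrain (845.2 compared with 613.3, and 426.0 compared with 397.8). The number past 2-fold was 8 to 13 under the other scalings, with none past it in forebrain. The list was drawn up from general knowledge of p53 targets, with earlier results of these data known. A part of p53 in the level of *Cdkn1a* was not tested.

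Genes for the turnover of cyclins and inhibitors differed little, with none of 9 past 2-fold, and 2 past it in forebrain when scaled by the sum. *Skp2*, the ubiquitin ligase subunit that targets p27, came closest, with 482.6 in ES cells and 964.6 in forebrain. The list of 10 genes for G1 kinases and activators is wider than G1, since it takes in the whole Cdc25 family. Of these genes, *Cdc25b* (180.1 and 754.8) and *Cdc25c* (575.5 and 1194.2) were past 2-fold in forebrain. Under the scaling by upper quartile only 1 of the list was, and *Cdc25c* lay inside the limit. *Cdk6* alone was past 2-fold in ES cells. The shares of protein-coding genes past 2-fold were 18.9% in ES cells and 27.9% in forebrain. *Cdc25a*, the phosphatase that acts on Cdk2, had 1984.2 and 1715.3.

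Among 14 genes listed as mitogen and Myc inputs, 6 were at least 2-fold higher in forebrain and 1, *Foxo3*, in ES cells (508.0 and 195.6). The shares of protein-coding genes were 27.9% and 18.9%. The 6 were *Id2*, *Id4*, *Bmi1*, *Mxd1*, *Mycl1* and *Id3*, and the list holds no gene for a mitogen itself. *Foxo3* encodes a transcription factor that is known to activate *Cdkn1b*. The genes with the largest differences were *Id2* (69.21 and 1760.1) and *Id4* (128.3 and 2435.8), which encode inhibitors of bHLH factors. *Bmi1*, a Polycomb gene known as a repressor of the *Cdkn2a* locus, had 58.11 in ES cells and 410.4 in forebrain, 7.06-fold higher in forebrain. *Mycn*, an activator of *Ccnd2* in neural progenitors, had 599.1 and 693.6, and *Myc* had 234.6 and 178.2, both inside 2-fold. Effects of these regulators on the cyclins and inhibitors were not tested.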

How the data were processed

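RNA-seq of 2 samples was analysed, E14 ES cells and E10.5 forebrain, 1 each. After depletion of rRNA, stranded libraries were made and sequenced from one end (100 bp per the labels, 50 bp in the paper). The authors aligned the reads to NCBIM37 (mm9) with HTSstation and deposited a value per gene as RPKM. Bowtie 0.12.7 is named in the submitters' processing notes, and the counting of shared reads is not given in the sources used here. All 29311 identifiers, with their coordinates, matched GENCODE vM1, which gave exonic lengths.

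Deposited RPKM values were used as they are. For genes with up to 2500 bp of exon, low values multiplied by length were near (within 0.05 of) whole multiples of 1.22 in ES cells (58.9% of 5704 genes) and 0.819 in forebrain (60.6% of 5679), where 10% would be by chance. This step was taken as 1 read, and reads were rounded to whole numbers. Intervals of a level are exact Poisson, and those of a ratio exact binomial (Clopper-Pearson). The step and intervals were tried on simulated Poisson counts with a known step, and genes given part reads were left out of the interval check. Such a simulation cannot show how well they hold in these libraries. Copies were searched with blastn 2.17.0 against NCBIM37, at 90% identity over 100 bases. Python 3.11.15, numpy 2.4.6, pandas 2.3.3, scipy 1.17.1 and matplotlib 3.10.9 were used.

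The genes and lists were chosen with earlier results of these data known. Named genes are the 10 members, list genes past 2-fold with an RPKM of at least 50, a few fixed relatives (*Cdk2*, *Cdk4*, *Cdkn1c*, *Rbl1*, *Rbl2*, *Trp53*) and the 3 nearest genes of the members with the highest and lowest ratio. Not every gene that meets this rule is described. *Cdkn2d*, *Pcna*, *Ccna2*, *Ccnb1*, *Cdk1*, *Cdc25a*, *Skp2*, *Btg2*, *Sesn1*, *Myc* and *Mycn*, inside 2-fold, were named after their values were seen. So were the genes that overlap or copy a member and the markers *Stmn2*, *Pecam1*, *Cdx2* and *Eomes*.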

Additional observations from a re-analysis of the deposited data

How the results depend on the processing

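No paired analysis was possible because each cell type has 1 sample, and no replicate could be left out. The alternatives were pseudocounts of 0.1 and 5, scaling by the sum or the upper quartile of each sample or per 1000000 inferred reads, other fold limits, and family shares without length or without single genes. The sign of the difference was kept in 56 of 56 recalculations over the 10 genes. This count says little, since a pseudocount cannot reverse a sign. The scalings moved a high gene by -0.27 to 0.09, less than the smallest difference, 0.65 for *Ccnd3*. The 4 genes higher in ES cells became 5 at 1.5-fold and 3 at 3-fold, and those in forebrain 5 and 3. Scaling by the sum shifted the median of all genes by -0.25 and moved the shares past 2-fold to 19.7% and 30.0%. Per 1000000 inferred reads, the values become so small that a pseudocount of 1 compresses the differences. *Cdkn2a* then fell to 1.04, and the shares of all genes past 2-fold to 8.18% and 11.5%. On inferred reads without length, *Ccnd2* held 53.96% of D-type cyclins in forebrain, E-type over D-type cyclins differed 6.18-fold, and *Cdkn1a* held 31.5% of the Cip/Kip sum in ES cells. Leaving out *Ccnd2* or *Ccnd1* gave 3.00-fold and 8.23-fold for E-type over D-type cyclins, and *Cdkn1a* held 59.1% without *Cdkn1c*. Addition of *Ccnd3-ps*, chosen after seeing the data as was the removal of overlaps, gave 40.8% for *Ccnd2* and 4.61-fold. These shifts follow from the genes or lengths entered. Depth limits the folds of *Cdkn2a* and *Cdkn2b*, with 0 and 6 reads in forebrain.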
